A study of Mus musculus with 22 samples.

Results

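The windows described here are the 1098 of 96381 deposited H3K27ac windows in which Kupffer cells of C57BL/6J mice carried more of the mark than those of both A/J and BALB/cJ mice. They were selected on the H3K27ac counts of the 9 parental libraries: an autosomal window was taken when its mean CPM (its count per 1000000 counts of the library over all windows) was at least 5 in C57BL/6J, at least 2 times the mean of A/J and of BALB/cJ, and at least 0.4 in every strain. Of the 94171 autosomal windows, 42870 met the level part of this rule, and the 1098 are 2.56% of those. Because the parental libraries chose the windows, their strain differences are given as a description without a test. The allelic counts in F1 mice, the ChIP input and the origin of each window in ATAC–seq peaks were not used in the choice.

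H3K27ac, acetylation of lysine 27 on histone H3, marks nucleosomes beside active promoters and enhancers, and its level rises and falls with the activity of the element. Kupffer cells are the resident macrophages of the liver sinusoids, and inbred strains differ in the DNA sequence of the elements that these cells use. In an F1 mouse, both parental alleles lie in the same nucleus and see the same factors, so that counting reads by allele separates differences carried by the chromosome itself from those set by its surroundings.

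Kupffer cells were sorted from livers of untreated mice of the inbred strains C57BL/6J, BALB/cJ and A/J, and of CB6F1/J, the first-generation cross of a BALB/cJ female and a C57BL/6J male, all of them young adult males per the study's methods. H3K27ac ChIP–seq was made from 3 mice of each strain and of the F1. Input chromatin was counted in 1 C57BL/6J library and in 3 libraries each of A/J and BALB/cJ, and F1 input was not used here. No strain carried a transgene or a treatment, and the C57BL/6J input has no replicate.

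The parental H3K27ac libraries held between 2291425.5 and 12980348 counts in the windows, with replicate 2 the shallowest of each strain, and the input libraries between 583517.5 and 1916587.5. Allelic columns of the F1 held between 182653.5 and 400681 counts, so that most windows carried few allelic reads. Summed over the windows nearest the start sites of 10 Kupffer cell markers, H3K27ac ranged from 156 to 172 CPM in A/J, from 164 to 186 in BALB/cJ and from 191 to 222 in C57BL/6J. The C57BL/6J sums thus lay above those of both other strains, and their part in the results below was not tested. The widest gap was at *Cd5l*, a gene with 8 members, at 40.5 CPM in C57BL/6J, 21.2 in A/J and 23.5 in BALB/cJ. *Clec4f* and *Id3* were highest in BALB/cJ, at 20.3 and 40.5 CPM against 15.6 and 36.6 in C57BL/6J, and *Cd163* was highest in A/J. All 10 markers had a window, and the lowest was *Marco*, at a mean of 3.89 CPM in C57BL/6J, 3.34 in A/J and 1.61 in BALB/cJ. The corresponding sum for 4 hepatocyte markers, of which 3 had a window, was between 5.07 and 7.87 CPM over all libraries, that for 6 sinusoidal endothelial markers, all with a window, between 7.08 and 13.8, and that for 3 dendritic cell markers, all with a window, between 12.5 and 30.3. By strain, the dendritic cell sums were 20.9 to 30.3 CPM in C57BL/6J, 12.5 to 25.3 in A/J and 14 to 21.8 in BALB/cJ. For 4 stellate cell, 4 neutrophil, 3 B cell and 4 T and NK cell markers, only 2, 2, 1 and 2 had a window, and the sums reached at most 1.69, 9.62, 4.36 and 14.1 CPM. Neutrophil sums were 4.11 to 9.62 in BALB/cJ, 1.31 to 3 in A/J and 1.23 to 4.78 in C57BL/6J, and T and NK cell sums 11 to 14.1, 3.93 to 12.2 and 5.85 to 6.91 in the same order. The part of these other cell types was not tested. Windows are named below by the gene whose transcription start site (TSS) is nearest, as the authors' annotation gives it, which does not say that the gene is its target.

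The sequences of 9 members are shown because the allelic and parental results turn on them. Each is a 200-base region within the window in which F1 reads were counted, read from the plus strand of RefSeq's GRCm38.p6 assembly, which is the C57BL/6J sequence and has the coordinates of mm10. Capitals mark matches, on either strand, to 9 short motifs: PU.1 (GAGGAAGT), an ETS core (CCGGAAGT), AP-1 (TGANTCA), C/EBP (TTGCNNAA), a MAF motif (TGCTGAC), NFIL3 (TTACGTAA), an MITF/TFE E-box (TCACGTGA), RBPJ (GTGGGAA) and an IRF core (TTCNNTTTC). The first 4 belong to windows with a large lead of the C57BL/6J allele, and the next pair to windows with a very large parental difference.
Gsr, chr8:33652928-33653127: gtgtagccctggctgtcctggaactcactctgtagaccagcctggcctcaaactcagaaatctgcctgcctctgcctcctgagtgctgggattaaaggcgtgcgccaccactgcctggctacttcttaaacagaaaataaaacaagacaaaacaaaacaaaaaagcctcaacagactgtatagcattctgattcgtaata
Dhx34, chr7:16207992-16208191: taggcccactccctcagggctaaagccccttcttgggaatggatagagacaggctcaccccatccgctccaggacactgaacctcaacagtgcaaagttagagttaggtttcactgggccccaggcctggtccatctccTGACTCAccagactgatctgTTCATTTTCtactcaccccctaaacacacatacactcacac
Mir331, chr10:93945981-93946180: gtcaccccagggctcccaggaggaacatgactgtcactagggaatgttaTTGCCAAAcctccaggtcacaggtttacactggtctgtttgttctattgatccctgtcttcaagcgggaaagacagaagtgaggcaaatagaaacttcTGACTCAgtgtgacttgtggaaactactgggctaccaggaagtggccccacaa
Fcrl1, chr3:87401415-87401614: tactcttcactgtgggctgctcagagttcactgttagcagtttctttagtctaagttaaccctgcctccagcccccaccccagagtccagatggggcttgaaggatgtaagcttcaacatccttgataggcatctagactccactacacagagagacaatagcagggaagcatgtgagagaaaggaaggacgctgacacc
S100z, chr13:95494789-95494988: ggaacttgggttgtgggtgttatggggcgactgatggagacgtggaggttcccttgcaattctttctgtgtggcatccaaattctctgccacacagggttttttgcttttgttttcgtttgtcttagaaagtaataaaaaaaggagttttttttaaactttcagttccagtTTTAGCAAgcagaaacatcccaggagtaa
Ggnbp1, chr17:27038340-27038539: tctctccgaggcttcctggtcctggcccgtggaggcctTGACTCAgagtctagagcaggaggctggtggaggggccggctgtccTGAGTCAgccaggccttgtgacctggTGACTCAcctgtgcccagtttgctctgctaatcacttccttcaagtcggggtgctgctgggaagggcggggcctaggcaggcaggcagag
The last 3 belong to windows in which both alleles carried near-equal counts.
Haus2, chr2:120652043-120652242: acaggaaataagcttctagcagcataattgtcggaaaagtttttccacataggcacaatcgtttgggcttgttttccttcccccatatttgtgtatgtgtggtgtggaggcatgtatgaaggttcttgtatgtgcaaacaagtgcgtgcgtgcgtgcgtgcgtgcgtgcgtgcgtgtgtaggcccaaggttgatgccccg
Kcna2, chr3:107099267-107099466: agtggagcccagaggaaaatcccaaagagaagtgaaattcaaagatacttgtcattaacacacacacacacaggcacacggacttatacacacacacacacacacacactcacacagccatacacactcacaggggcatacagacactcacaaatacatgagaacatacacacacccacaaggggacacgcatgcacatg
Asph, chr4:9649482-9649681: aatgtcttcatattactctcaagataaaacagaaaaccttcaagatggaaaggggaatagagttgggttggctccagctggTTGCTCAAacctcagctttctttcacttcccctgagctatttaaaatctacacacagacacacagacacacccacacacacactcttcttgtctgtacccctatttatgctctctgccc
None of these regions overlapped an annotated UTR. Repeats, soft-masked in the assembly, made up 85.5% of the *Gsr* region and 58% of the *Kcna2* region, but 10% to 37.5% of the others. The *Dhx34* region held an AP-1 and an IRF match, the *Mir331* region a C/EBP and an AP-1 match, and the *Ggnbp1* region 3 AP-1 matches, whereas no listed motif was found in those of *Gsr*, *Fcrl1*, *Haus2* or *Kcna2*. A match to letters is not evidence that a factor binds there.

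The median C57BL/6J level of the 1098 windows was 11.1 CPM, against 2.9 in A/J and 2.96 in BALB/cJ. Library by library, the median over the windows was 11.7, 11.2 and 11.1 CPM in C57BL/6J, 2.72, 3.05 and 2.66 in A/J, and 2.94, 3.04 and 2.66 in BALB/cJ. For comparison, the 42870 windows that met the level part of the rule, called level-rule windows below, had a median C57BL/6J level of 15.5 CPM. The ratio of the C57BL/6J mean to the higher of the other means had a median of 2.88 and reached 51.8. It lay below 3 in 594 windows, from 3 to below 5 in 261, from 5 to below 10 in 151, and at 10 or more in 92. All 3 C57BL/6J libraries exceeded all 6 others in 1024 members, as they did in 7.59% of the windows that met the level rule, a count that the choice of members largely fixes.

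**Figure D1:**
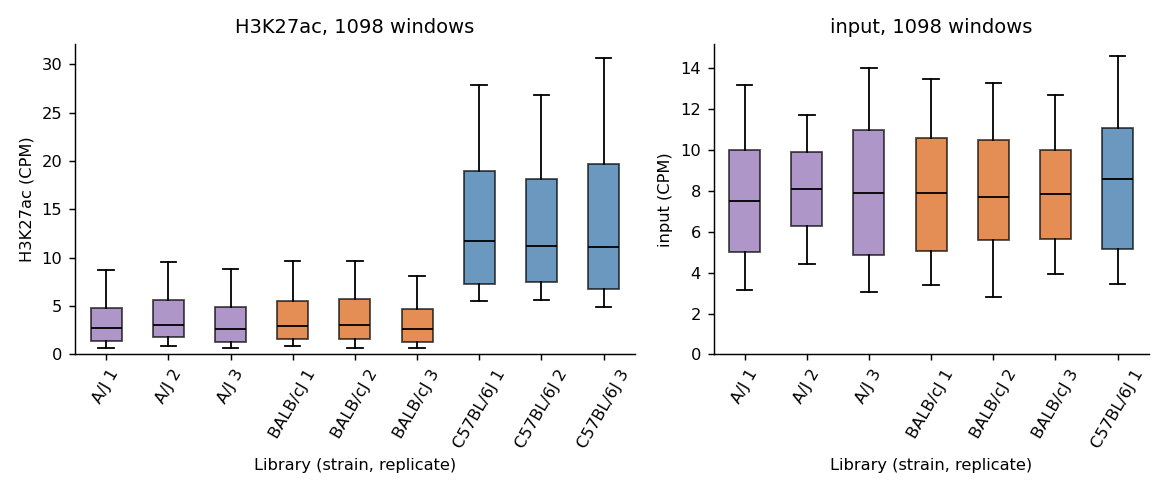
Left, H3K27ac (CPM, linear axis) in the 1098 windows for each of the 9 parental libraries; right, input (CPM) in the same windows for each of the 7 input libraries. Boxes span the quartiles with the median as a line, and whiskers run from the 10th to the 90th percentile over windows; C57BL/6J medians of 11.1 to 11.7 CPM stand above A/J and BALB/cJ medians of 2.66 to 3.05, while input medians lie between 7.52 and 8.57 in all libraries.

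The A/J and BALB/cJ means were close to each other in most of these windows. The A/J mean was the higher of the pair in 543 windows, the means differed by less than 1.5 times in 766, and they differed by 2 times or more in 129. In a fit over all 60387 windows that passed the filter on counts (edgeR quasi-likelihood test, adjusted p under 0.05 and a change of more than 2-fold), 23 of 1093 members tested were called higher in A/J, against a background of 1.4%, and 34 higher in BALB/cJ, against 2.23%. When the replicate number was fitted as a replicate block, these counts were 36 and 51, while the counts over all 60387 windows rose from 844 and 1348 to 1258 and 1999. The choice of members capped both strains below the C57BL/6J mean, and this contrast is therefore also a description.

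The 8 windows with the largest ratios, 1 per gene and without predicted or RIKEN gene symbols, had almost no signal in A/J and BALB/cJ. The *Mtmr7* window (chr8:40609922-40610922), in intron 1 of 13 of a gene for a myotubularin-related lipid phosphatase, had 19.9, 21.1 and 23 CPM in the C57BL/6J libraries. It had 0.908, 0 and 0.416 in A/J and 0.47, 0 and 0.746 in BALB/cJ, a ratio of 48.3 to the higher mean. Input also differed there, at 17.1 CPM in the single C57BL/6J library against means of 3.64 in A/J and 3.71 in BALB/cJ, and its part in the result was not tested. The intergenic *Ggnbp1* window (chr17:27037947-27038947) had 36.1, 20.9 and 31.5 CPM in C57BL/6J and at most 0.873 in any other library, with input at 10.3, 7.43 and 7.79 CPM in C57BL/6J, A/J and BALB/cJ. Both windows carried ATAC–seq peaks of BALB/cJ as well as C57BL/6J cells.

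*Zfp951* and *Zfp493*, genes of zinc finger proteins of a family with many similar copies, gave ratios of 40.6 and 29.6. Both windows are reported as uncertain because of these copies, and how uniquely their reads map was not tested. The *Zfp951* promoter window had 21.8, 22.9 and 24.7 CPM in C57BL/6J and an input of 5.14 CPM there, against means of 0.621 in A/J and 1.77 in BALB/cJ. Input at *Zfp493* was 20.6 CPM in C57BL/6J, 6.75 in A/J and 5.01 in BALB/cJ. The window near *Gcnt1*, a gene for a glycosyltransferase that branches O-glycans, had 22.7, 19.1 and 30.7 CPM in C57BL/6J and at most 1.01 elsewhere, and input was 12, 10.8 and 8.42 CPM in C57BL/6J, A/J and BALB/cJ. Near *S100z*, a gene for a calcium-binding protein, C57BL/6J libraries had 20.5, 18.2 and 15.8 CPM and the others at most 0.873. The promoter window of *AA388235*, a gene in the region of the MHC, had 31.3, 29.8 and 38.5 CPM in C57BL/6J and at most 1.41 in the others, and the *Ubxn2b* window had 23.2, 26.6 and 27.7 against at most 1.35, with an input of 19.7 CPM against 10.6 in A/J and 8.3 in BALB/cJ. Of these 8 windows, *Zfp493* and *Ubxn2b* could be tested in the F1, and both were called toward the C57BL/6J allele. Both passed the filter through that allele alone, with BALB/cJ allele means of 3.73 and 10.3 normalized counts. *S100z* had too few reads for the test, with 19.6, 33.6 and 25.6 normalized counts on the C57BL/6J allele and 0, 0 and 1.02 on the BALB/cJ allele.

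The 8 members with the most H3K27ac, 1 per gene and without predicted or RIKEN gene symbols, had smaller ratios. The window at the promoter of *Isoc2b*, which codes for an isochorismatase-domain protein, had 58.2, 57.2 and 64.9 CPM in C57BL/6J, 7.57, 12 and 9.66 in A/J, and 7.16, 7.43 and 9.98 in BALB/cJ. It is reported as uncertain because the gene has a close paralog beside it, and it carried no allelic read. Intron 1 of *Adam17*, the sheddase that releases TNF from the cell surface, had a C57BL/6J mean of 59.1 ± 8.6 CPM (SD, n = 3), against 19.7 ± 2.31 in A/J and 19.4 ± 4.07 in BALB/cJ. A window in intron 4 of *Lepr*, the leptin receptor, had 63, 40.2 and 66.8 CPM in C57BL/6J and between 13.5 and 20.6 in the other 6 libraries. By RNA, the study reports the reverse direction, with *Lepr* highest in BALB/cJ cells, and RNA was not examined here. Upstream of *Lgals3*, which codes for galectin-3, C57BL/6J had 55.2 ± 5.89 CPM, BALB/cJ 23.1 ± 1.77 and A/J 16.3 ± 2.57. The window near the claudin gene *Cldn14* had a wider gap, with 55.8 ± 5.01 CPM in C57BL/6J against 6.53 ± 0.16 in BALB/cJ and 3.09 ± 0.526 in A/J. Promoter and intronic windows of *Gsr*, *Uqcrb* and *Btaf1* completed the 8 highest, at C57BL/6J means of 54.8, 51.9 and 51.8 CPM and ratios of 3.66, 2.13 and 2.11. Of the 8, *Btaf1* and *Lepr* had the largest SD over C57BL/6J mice, and replicate 2, the shallowest library, was lowest in both. In the F1, none of *Cldn14*, *Lepr* and *Uqcrb* was called, at allelic log2 fold changes of 0.57 ± 0.22, 0.78 ± 0.26 and 0.52 ± 0.52 (SE). Their adjusted p-values in edgeR were 0.14, 0.0822 and 0.774.

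Near the threshold, among windows of at least 20 CPM in C57BL/6J, membership depended on very small differences. A *Cd5l* window (28 against 14 CPM in BALB/cJ), an intergenic window 99865 bases from *Rpl38* (20.7 against 10.3) and one near *Tspan3* (21.6 against 10.8) lay just inside, at a ratio that rounds to 2. Windows of *Txn1* (26.9 against 13.5 in A/J), *Ly6i* (49.5 against 24.9 in A/J) and *Ly6e* (44.7 against 22.6 in A/J) lay just outside, at ratios of 1.99, 1.99 and 1.98. Other windows near *Ly6e* were members, a group of 6 at ratios from 2.1 to 11. Of these, 2 of 4 tested in the F1 were called toward the C57BL/6J allele.

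The members lay mostly away from promoters. By the authors' annotation, 494 (45%) were intronic, 457 (41.6%) intergenic and 82 (7.47%) at a promoter, whereas 43.2%, 24.5% and 25.1% of the 42870 windows of the level rule were in these classes. The median distance to the nearest TSS was 15472 bases for members and 3688 bases for the larger set. Windows chosen by the mirrored rules for BALB/cJ (650 windows) and A/J (299 windows) were as rarely at promoters, at 9.23% and 7.69%. Members made up between 1.31% (chromosome 15) and 4.07% (chromosome 13) of the level-rule windows of a chromosome. In sequence, distal members (over 1000 bases from a TSS, n = 965) had nearly the base composition and motif content of the 27222 distal windows of the level rule. Median GC content of the central 200 bases was 47% against 48%, an AP-1 match was present in 15.4% against 14.2%, C/EBP in 13.9% against 12.9%, the MAF motif in 7.77% against 6.39%, PU.1 in 8.81% against 9.35%, the ETS core in 0.829% against 0.709%, the IRF core in 10.9% against 11% and RBPJ in 4.35% against 4.96%. The E-box was present in 0.311% against 0.367%, and NFIL3 in 0 members against 0.14%. They differed more in repeats, since 50% or more of the window was soft-masked as repeat in 8.19% of distal members and 4.03% of the distal windows.

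Each window derives from one or more ATAC–seq peak sets, which mark open chromatin and were made from other libraries of the same strains. A peak of untreated C57BL/6J cells underlay 950 members (86.5%), one of BALB/cJ cells 675 (61.5%) and one of A/J cells 466 (42.4%). Among the windows of the level rule, these shares were 81.8%, 88.6% and 77.4%. C57BL/6J was the only strain with a control peak in 295 members (26.9%), against 2.81% of the level-rule windows, and all 3 strains had one in 441 (40.2%), against 72.4%. A control peak of A/J alone was found in 2 members and of BALB/cJ alone in 35. The same pattern held for the mirrored choices, since 31.2% of the windows favoring BALB/cJ had a control peak of BALB/cJ alone and 24.7% of those favoring A/J had one of A/J alone. In the 441 members with peaks in all 3 strains, open chromatin had been called in every strain.

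**Figure D2:**
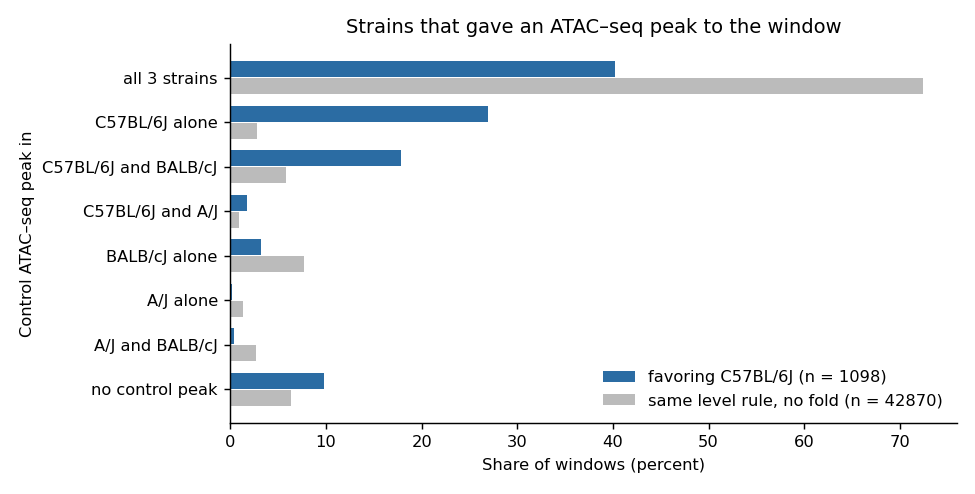
Share of windows (percent, linear axis) by the strains whose untreated cells gave an ATAC–seq peak to the window, for the 1098 members (blue) and the 42870 windows that met the level part of the rule (gray). A peak in C57BL/6J alone is found in 26.9% of members and 2.81% of the larger set, and peaks in all 3 strains in 40.2% and 72.4%.

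Members lay in groups along the chromosome. Of the next non-overlapping level-rule windows downstream of a member, 276 of 1098 (25.1%) were members, against 2.09% after a window that was not. Joining members no more than 50 kb apart gave 575 groups, of which 325 held 1 member, 216 held 2 to 4 and 34 held 5 or more, and 70.4% of members lay in a group of at least 2. Overlapping windows are counted separately here, and merging them leaves 846 loci.

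The gene with the most members was *Gsr*, which codes for glutathione reductase, the enzyme that returns oxidized glutathione to its reduced form. All 12 of its level-rule windows were members, from 829 bases before the TSS to 21416 bases after it (chr8:33651909-33675154), merging into 3 loci. Summed over them, H3K27ac was 324, 349 and 342 CPM in the C57BL/6J libraries, 66.9, 85.8 and 70.8 in A/J, and 73.8, 99.5 and 86.8 in BALB/cJ. Signal peaked at the promoter, at 54.8 ± 2.59 CPM in C57BL/6J against 14.4 ± 4.17 in A/J and 15 ± 3.87 in BALB/cJ, then again in a window 20124 bases downstream, at 46.1 CPM against 4.03 in A/J and 8.24 in BALB/cJ. Input summed over the 12 windows was 57.4 CPM in the single C57BL/6J library, 91.7 in A/J and 104 in BALB/cJ, where overlapping windows count the same reads, and its part in the result was not tested. Of the 6 windows that could be tested in the F1, all had more reads on the C57BL/6J allele, and 5 were called, although overlapping windows share reads and the promoter window and its neighbor at chr8:33652983-33653983 held the same F1 counts.

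**Figure D3:**
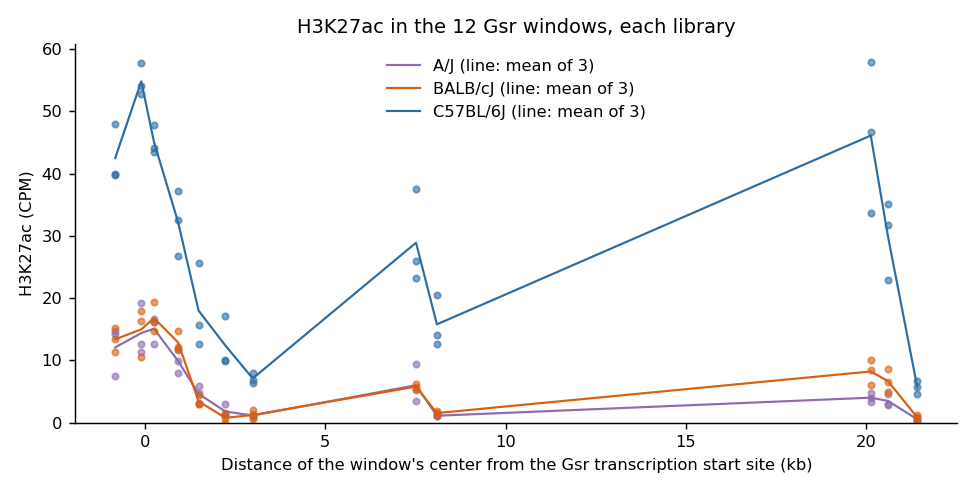
H3K27ac (CPM, linear axis) in the 12 windows of Gsr against their distance from its transcription start site in kb; points are libraries and lines join the mean of 3 mice per strain, also across stretches that hold no window. The C57BL/6J mean lies above both other strains in every window, at 54.8 against 14.4 CPM in A/J and 15 in BALB/cJ at the promoter, and 46.1 against 4.03 and 8.24 in the window 20124 bases downstream.

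The 11 windows nearest *Mir331*, out of 12, spanned chr10:93945069-93970002 and lay partly in the 3′ UTR of a neighboring gene. Their summed H3K27ac was 208, 184 and 239 CPM in C57BL/6J and between 39.5 and 51.5 in the other 6 libraries, and 3 of 5 tested in the F1 were called toward the C57BL/6J allele. Of the called ones, that at chr10:93961858-93962858 (1.34 ± 0.3, adjusted p = 0.00583 in edgeR) had an adjusted p of 0.0643 with the replicate block, 0.109 without animal 2 and 0.0743 without animal 3. That at chr10:93945069-93946069 had an adjusted p of 0.00367, and 0.153 without animal 3. *Cd5l*, a secreted scavenger-type protein made by Kupffer cells, had 8 members among 24 windows, with a summed C57BL/6J signal of 168, 148 and 174 CPM against 40.6 to 67.4 elsewhere. None of its 4 tested windows was called in the F1 by edgeR, and DESeq2 called 1, while the 4 estimates lay between 0.12 and 1.45 on the C57BL/6J side. *Ptprm*, a receptor tyrosine phosphatase, had 8 members among 32 windows. These members lay in intron 1 with ratios from 2.21 to 3.12, and 4 of 5 tested were called toward the C57BL/6J allele. A pair of these overlapped and held the same F1 counts (102, 77.5 and 29.5 against 18.3, 24.3 and 24.6), and their adjusted p with the animal as a replicate block was 0.174. The remaining tested window of *Ptprm*, at chr17:67304531-67305531, had an allelic log2 fold change of -0.03 ± 0.47 (SE), and its difference from the others was not tested. *Asph*, a hydroxylase of aspartate and asparagine residues, had 8 members among 22 windows, with ratios from 2.06 to 3.28. Of these members, 1 could be tested, with an allelic log2 fold change of -0.19. *Iqgap2*, a scaffold protein of the cytoskeleton, had 7 members among 17 windows, and 1 of 2 tested windows, which overlap, was called, at 1.64 ± 0.44. Its adjusted p of 0.0243 became 0.153 with the replicate block.

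Other groups of 5 or more members, named here after their values were seen, ranged from a shared allelic lead to none. Around *Mtmr7*, all 5 level-rule windows were members, with a summed C57BL/6J mean of 114 CPM against 11.3 in A/J and 13 in BALB/cJ, and a summed input of 69.4, 34.4 and 30 CPM in the same order. Of its 3 tested windows, 1 was called, with a median allelic log2 fold change of 1.42. Near *Cep350* and *Tor1aip1*, which code for a centrosomal protein and a nuclear envelope protein, 7 of 7 windows were members and both tested ones were called, with a median of 2.04. Near *Atg14*, a subunit of the autophagy lipid kinase complex, and *Fbxo34*, all 3 tested windows were called, at a median of 2.71. Near *Btaf1*, 6 of 6 windows were members with ratios from 2.88 to 17.2, and none had enough allelic reads for the test. Near *Adam17*, both tested windows, which overlap, leaned toward the C57BL/6J allele at a log2 fold change of 0.85. Neither was called, because the change was under 2-fold, while the adjusted p in edgeR was 0.00574 for both and, at chr12:21368668-21369668, 0.0392 with the replicate block, 0.0932 without animal 2 and 0.15 without animal 3. Beside *Mtus1*, the single tested window of 7 members leaned the other way, at -0.52.

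In the F1, 1081 of the 1098 members contained a counted region and 702 had at least 1 allelic read, that is, a perfectly mapped read over a variant between C57BL/6J and BALB/cJ. Such reads were found in 63.9% of members and in 25.6% of the windows of the level rule. The filter on mean count (over 16 per allelic column) left 197 members, or 17.9%, in the test, while 505 had allelic reads but too few, 379 had none and 17 held no counted region. The 197 are thus the better covered part of the members, not all of them. Some passed through the C57BL/6J allele alone: the BALB/cJ allele had a mean at or under 16 in 100 of them, and the C57BL/6J allele in none. Both alleles had a mean over 16 in 97 of the 197 members, but in 4369 of all 5234 windows tested.

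Of these 197 windows, 88 were called toward the C57BL/6J allele (edgeR, adjusted p under 0.05 and more than 2-fold), or 44.7%, whereas 4.26% of all 5234 windows tested were. No member was called toward the BALB/cJ allele, against 2.94% of all windows. DESeq2 also called none. In edgeR, no member had an unadjusted p under 0.05 in that direction, against 136 toward the C57BL/6J allele, counts given without a background. The median allelic log2 fold change was 1.41 in the tested members, with quartiles of 0.66 and 2.26, and -0.02 over all windows. The C57BL/6J allele had the higher normalized count in 3 of 3 animals in 154 members, against 19.7% of all windows. The estimate lay on the C57BL/6J side in 182 (92.4%), against 47.9% of all windows. With the animal as a replicate block, 38 members (19.3%) were called, each of them among the 88, against 1.82% of all windows. Members passed the filter through the C57BL/6J allele alone more often than all windows did, so 44.7% against 4.26% compares unlike sets. Among the 97 members with a mean over 16 on both alleles, 26 were called, against 2.06% of such windows. The remaining calls among the 88 came from members that passed through the C57BL/6J allele alone. The median of the 97 was 0.71, and 82 of them leaned toward the C57BL/6J allele, both given without a background. The 88 windows lay in 67 loci near 61 genes. Keeping 1 window per overlapping locus, an alternative chosen after seeing the data, gave 64 calls in 148, without a background. Leaving out animal 1 gave 93 calls (39.7% of the members then tested, against 4.13% of all windows), leaving out animal 2 gave 43 (28.1% against 2.17%), and leaving out animal 3 gave 42 (20.6% against 1.71%).

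**Figure D4:**
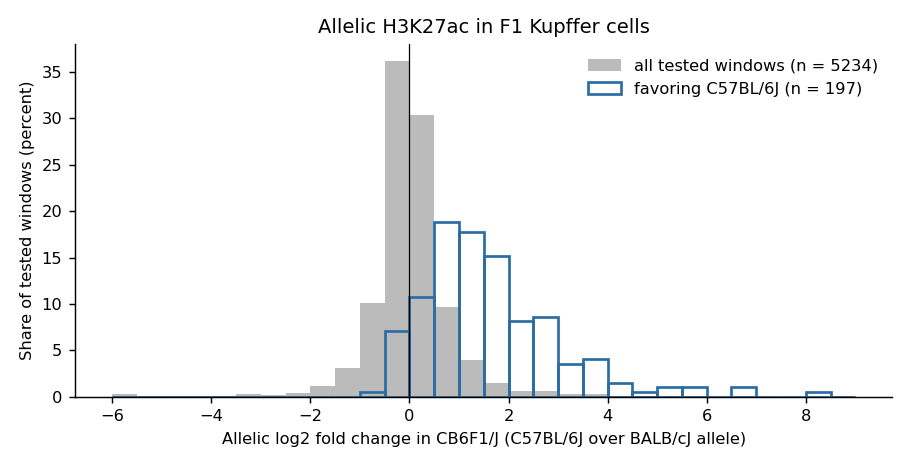
Distribution of the allelic log2 fold change (C57BL/6J over BALB/cJ allele, bins of 0.5, end bins hold all values beyond them) in 3 CB6F1/J mice, as a share of windows in percent, for all 5234 windows tested (gray) and the 197 members among them (blue outline). All windows center on -0.02, whereas members center on 1.41 with few values below 0.

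The tested members can be divided by the parental ratio that chose them, which is given as a description, since 100 of the 197 passed the filter through the C57BL/6J allele alone. Among those with a C57BL/6J to BALB/cJ ratio from 2 to below 4 in the parents, 33 of 106 were called with a median of 1, from 4 to below 8 it was 31 of 61 with a median of 1.62, and at 8 or more it was 24 of 30 with a median of 3.12. By class, 7 of 16 promoter windows, 40 of 84 intronic and 35 of 84 intergenic windows were called. Members with a control ATAC–seq peak in C57BL/6J alone gave 24 calls of 48, and those with peaks in all 3 strains 35 of 93. These strata were not tested against each other. The windows of the mirrored rule for BALB/cJ leaned the other way, with 14 of 47 called toward the BALB/cJ allele and a median of -1.18.

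Among called members whose allelic columns did not overlap, the 8 largest leads with at least 50 normalized counts on the C57BL/6J allele are given, 1 per gene and without predicted or RIKEN gene symbols. Of the 8, all but the *Gsr* window had a BALB/cJ allele mean at or under 16 and passed the filter through the C57BL/6J allele alone. Those means ran from 1.19 at *Dhx34* to 10.3 at *Ubxn2b*, against 34.4 at *Gsr*. In the *Dhx34* window (chr7:16207618-16208618), in intron 7 of 16 of a gene for an RNA helicase of nonsense-mediated decay, the C57BL/6J allele had 63.3, 93.5 and 53.2 normalized counts and the BALB/cJ allele 0, 1.52 and 2.05. The log2 fold change was 5.59 ± 0.58 (SE, adjusted p = 4.99e-06), and the parents had 30.2 CPM in C57BL/6J against 1.32 in BALB/cJ and 1.28 in A/J. Its only peak source was LPS-treated C57BL/6J cells. Beside *Mir331* (chr10:93945595-93946595), counts were 78.4, 68.7 and 86.6 on the C57BL/6J allele and 3.05, 1.52 and 11.3 on the other (3.88 ± 0.5, adjusted p = 4.33e-05). In the last intron of *Fcrl1* (chr3:87400998-87401998), an Fc receptor-like gene known from B cells, they were 96.5, 143 and 152 against 9.14, 12.9 and 8.19 (3.65 ± 0.32, adjusted p = 1.55e-06). These adjusted p-values came from the edgeR fit without the animal as a block. The replicate block in edgeR gave 0.0372 at *Dhx34*, 0.0411 at *Mir331* and 0.0332 at *Fcrl1*.

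*Fam219a*, at chr4:41554904-41555904, had 63.3, 51.9 and 74.8 normalized counts on the C57BL/6J allele and 0, 4.55 and 12.3 on the BALB/cJ allele (3.37 ± 0.55, adjusted p = 0.000427), and with the animal as a replicate block its adjusted p was 0.0652. Intronic windows of *Fbxo34*, an F-box protein gene, and *Ncapg2*, a subunit of condensin II, had log2 fold changes of 2.84 ± 0.43 and 2.82 ± 0.44 with adjusted p-values of 0.000203 and 0.000298. The window at the *Gsr* promoter, whose region is shown above, was the most deeply covered of the 8, with 264, 170 and 257 counts against 48.7, 16.7 and 37.9 (2.8 ± 0.31, adjusted p = 6.99e-06). Upstream of it, at chr8:33651909-33652909, the lead was smaller, at 1.14 ± 0.34, and its adjusted p of 0.0469 rose to 0.464, 0.0738 and 0.204 without animals 1, 2 and 3 and to 0.332 with the replicate block. *Ubxn2b*, one of the windows with the widest parental gap, had 57.3, 68.7 and 78.8 counts against 3.05, 13.6 and 14.3 (2.62 ± 0.43, adjusted p = 0.000417). The replicate block in edgeR gave adjusted p-values of 0.0392 at *Fbxo34* and at *Ncapg2*, 0.0332 at the *Gsr* promoter and 0.0448 at *Ubxn2b*.

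Several windows that favored C57BL/6J in the parents had no allelic lead in the F1, as 19 of the 197 lay within 0.25 of 0 on the log2 scale. The *Haus2* window (chr2:120651522-120652522), nearest a gene of the augmin complex of the spindle, had 44.5, 31.9 and 45.8 CPM in C57BL/6J, 11.7, 8.78 and 7.37 in BALB/cJ, and 12.5, 8.07 and 7.99 in A/J. Its alleles had 72.3, 52.6 and 58.1 normalized counts for C57BL/6J and 73.1, 53.1 and 58.4 for BALB/cJ in the same 3 F1 mice (log2 fold change -0.01 ± 0.27). Single-library input was 12 CPM in C57BL/6J there, against means of 4.58 in A/J and 5.17 in BALB/cJ. *Kcna2*, a voltage-gated potassium channel gene on the list of Kupffer cell genes, had 35.1, 12.8 and 31.1 CPM in C57BL/6J at chr3:107099252-107100252, 12.1, 9.46 and 10.8 in BALB/cJ, and 4.34, 6.11 and 2.75 in A/J. In the F1, 30.1, 40.9 and 55.1 counts on the C57BL/6J allele faced 30.5, 45.5 and 57.3 on the BALB/cJ allele (-0.08 ± 0.35).

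At *Asph* the BALB/cJ allele was slightly ahead in each animal, with 67, 51.6 and 41 normalized counts against 52.8, 46.8 and 39.4 (-0.19 ± 0.31). The parents had 22.4 ± 1.34 CPM in C57BL/6J and 10.1 ± 2.8 in BALB/cJ. The *Cd5l* window 1094 bases upstream of the TSS had 27.6 ± 5.24 CPM in C57BL/6J and 10.4 ± 3.95 in BALB/cJ, and allelic counts of 27.1, 54.8 and 61 against 35, 36.4 and 57.3 (0.17 ± 0.36). *Art2a-ps* and *Elac1* completed the 6 best covered windows of this kind, at 0.23 ± 0.28 and -0.05 ± 0.35. For each of the 6, the interval of 2 SE around the estimate includes values to both sides of 0, and a missed threshold does not show that the alleles were equal. Whether the allelic difference was smaller than the parental one was not tested, because the parental libraries chose the windows.

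**Figure D5:**
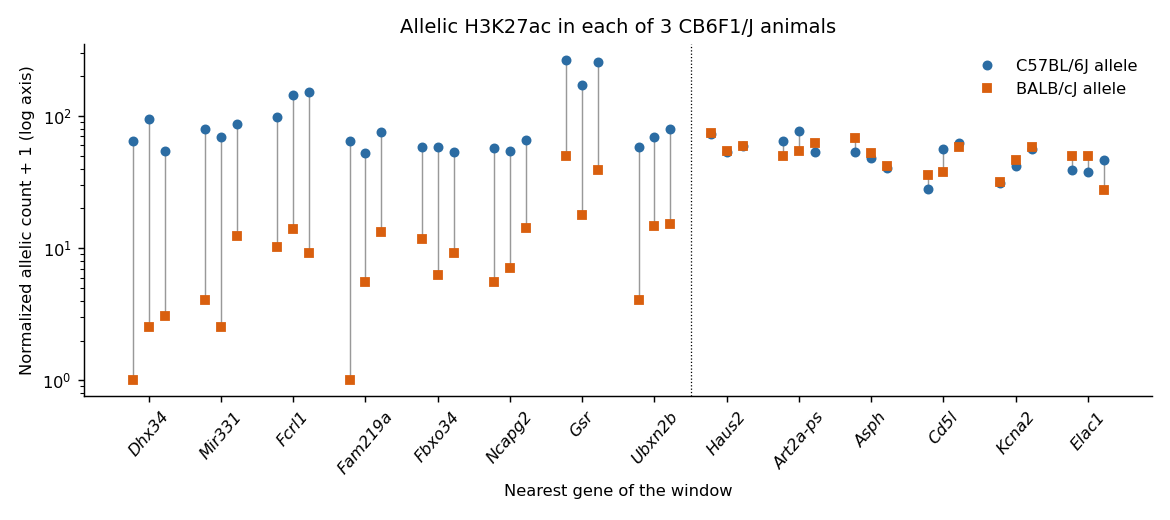
Normalized allelic counts plus 1 (log axis) in each of 3 CB6F1/J mice for 14 member windows named by nearest gene; a gray line joins the C57BL/6J allele (blue circle) and the BALB/cJ allele (orange square) of 1 mouse. Left of the dotted line are the 8 windows with the largest leads, chosen among called windows whose allelic columns do not overlap; right of it are the 6 best covered windows with a log2 fold change within 0.25 of 0.

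Total H3K27ac of the F1, summed over reads that fit either allele, lay between the parents in the members. Centered on the windows of the level rule, the median log2 ratio of F1 to C57BL/6J was -0.6, -0.69 and -0.67 in the 3 animals, that of F1 to BALB/cJ was 1.12, 0.99 and 0.96, and that of F1 to A/J, which is not a parent of the cross, was 1.13, 1.02 and 0.99. These ratios compare 200-base F1 regions with 1000-base parental windows (pseudocount 0.5 CPM), are given as a description, and share the parental counts with the rule.

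Members were also counted near the genes of 11 lists of cell functions, beside the 2.56% of all level-rule windows that were members. Of 459 level-rule windows near 34 Kupffer cell identity genes, 13 (2.83%) were members, and they belonged to *Cd5l*, *Kcna2*, *C1qb* and *Nr1h3*. Of the 6 tested in the F1, 4 leaned toward the C57BL/6J allele and 0 were called by edgeR, with 1 at an unadjusted p under 0.05 and 1 called by DESeq2. That was the *Cd5l* window at chr3:87326620-87327620, with a log2 fold change of 1.45 ± 0.46, an adjusted p of 0.0638 by edgeR and 0.0281 by DESeq2. The *C1qb* window, upstream of a gene for a chain of complement component C1q, had 23.4, 24.6 and 25.5 CPM in C57BL/6J, 7.36, 16.4 and 9.91 in A/J, and 8.69, 18.4 and 9.04 in BALB/cJ. In intron 3 of *Nr1h3*, which codes for the oxysterol receptor LXRα, the groups overlapped, at 7.87, 11.5 and 9.86 CPM in C57BL/6J and up to 8.61 in BALB/cJ.

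Among MHC class II genes, 3 of 51 windows (5.88%) were members, in intron 1 of *Cd74*, the invariant chain that escorts class II molecules, and in *H2-Ob*, a chain of the peptide-editing inhibitor H2-O. *Cd74* had 44.8, 36.5 and 60.2 CPM in C57BL/6J against 13.6, 9.82 and 7.66 in A/J and 12.8, 16.2 and 11 in BALB/cJ, and carried no allelic read. The *H2-Ob* window at chr17:34239410-34240410 had 20.3 ± 3.98 CPM in C57BL/6J, 7.28 ± 4.47 in A/J and 4.98 ± 2.27 in BALB/cJ, and its alleles had 57.3, 74.5 and 61 against 6.09, 15.2 and 10.2 counts (2.53 ± 0.4, adjusted p = 0.000315). This *H2-Ob* window passed the filter through the C57BL/6J allele alone, with a BALB/cJ allele mean of 10.5, and its adjusted p in edgeR with the replicate block was 0.0392. Both tested windows of this list were called toward the C57BL/6J allele. Members lay near only 2 of the 11 genes of the list that had a window.

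Of the interferon response list, 8 of 212 windows (3.77%) were members, near *Ifi203*, *Ifi204*, *Ifit3* and *Zbp1*, and none could be tested in the F1. *Ifi203*, a member of a family of DNA sensors with similar copies, had 18.8, 24.1 and 24.4 CPM in C57BL/6J and at most 6.34 elsewhere, while *Ifit3* had 16.3 ± 4.3 against 7.06 ± 2.38 in BALB/cJ and 5.93 ± 2.09 in A/J. Around *Ifit3*, *Ifit1bl1* and *Ifit3b*, 6 members had a summed input of 81.4 CPM in C57BL/6J against 37 in A/J and 43.2 in BALB/cJ. Lipid handling genes held 5 members of 209 windows (2.39%), near *Lpl*, *Lgals3*, *Tyrobp* and *Cd9*. The *Lgals3* window was called toward the C57BL/6J allele (134, 149 and 130 counts against 62.4, 57.6 and 63.5, log2 fold change 1.18 ± 0.22), and its adjusted p without animal 2 was 0.0784 and without animal 3 0.0549. The window of *Tyrobp*, a signaling adaptor of myeloid receptors, was not called, at 0.41 ± 0.25.

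The Toll-like receptor and NF-kB list held 3 members of 250 windows (1.2%), in *Irak3*, a brake on that pathway, and near *Il12b*. The AP-1 and ATF list held 2 of 244 (0.82%), both at *Maff*, where replicate 1 stood above the other replicates in every strain, at 37.5 CPM in C57BL/6J, 21.4 in A/J and 22.3 in BALB/cJ, and the C57BL/6J libraries still lay above the rest. Iron handling genes held 5 of 121 (4.13%, *Hfe2* and *Blvrb*), phagocytic and Fc receptors 2 of 250 (0.8%, *Fcgr1* and *Clec7a*), LXR targets and sterol synthesis 1 of 153 (0.654%, *Nr1h3*, which 2 lists hold), housekeeping genes 1 of 94 (1.06%, *B2m*), and chemotaxis and wound healing 0 of 163. None of the members of these 6 lists was tested in the F1. The *Il12b* window had 39.2, 9.5 and 21.7 normalized counts on the C57BL/6J allele against 6.09, 3.03 and 4.1, and did not pass the filter.

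Input chromatin, which measures DNA and mapping rather than acetylation, had medians near each other over the members. The median over the windows of the mean input was 8.57 CPM in C57BL/6J, 8.04 in A/J and 7.96 in BALB/cJ. Over the level-rule windows the order of the medians was the other way, at 8.57 CPM in C57BL/6J, 9.52 in A/J and 9.56 in BALB/cJ. The C57BL/6J medians come from 1 shallow library. By the mean per window, the level-rule windows were level, at 12.8, 12.7 and 12.8 CPM in C57BL/6J, A/J and BALB/cJ. The members had 8.67, 8.07 and 8.06 CPM by that measure. They thus stood higher in C57BL/6J input relative to that background, by less in the means than in the medians. The part of this in the results was not tested. With edgeR fits over 93225 windows, 0 of 1043 members tested were called in A/J against C57BL/6J and 0 in BALB/cJ against C57BL/6J, with backgrounds of 0.029% and 0.0322% called higher in C57BL/6J. DESeq2 called 0 in both. At an unadjusted p under 0.05, input was higher in C57BL/6J in 42 and 43 members and lower in 28 and 29, and the former are 4.03% and 4.12% of members against 2.14% and 2.32% of all windows. Only 1 C57BL/6J library was counted, of 583517.5 counts, so that a missed call does not show equal input.

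Some members with more C57BL/6J input lay in families of similar genes. Near *H2-T10*, a class I-like gene of the MHC (chr17:36121038-36122038), the raw input counts were 10 in C57BL/6J, 0, 0 and 1 in A/J, and 4, 1 and 0.5 in BALB/cJ, and H3K27ac was 40.7, 3.3 and 2.67 CPM in C57BL/6J, A/J and BALB/cJ. At *Zfp729b* (chr13:67608730-67609730), C57BL/6J had 14.5 input counts against 1, 8 and 1 in A/J and 9, 2 and 4 in BALB/cJ, and at *Ifit3b* (chr19:34607321-34608321) 16 against 2.5, 6 and 7 and 7.5, 3.5 and 8. Each of these 3 was called in an alternative fit of A/J against C57BL/6J and not in the fit reported above, and they were named after their values were seen. The group of 5 members near *Tagap1*, *Rnaset2b* and *Rsph3b* had a summed input of 30.8 CPM in C57BL/6J, 6.97 in A/J and 9.4 in BALB/cJ, and its only tested member had an allelic log2 fold change of -0.34. The part of input in the H3K27ac differences of these windows was not tested.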

How the data were processed

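H3K27ac ChIP–seq and input reads of sorted Kupffer cells were aligned by the authors with Bowtie2 to a genome for each strain. Reads were moved to mm10 coordinates and counted with HOMER in windows around merged ATAC–seq peaks. No versions are given in the submitters' processing notes. Per the paper, the A/J and BALB/cJ genomes were mm10 with reported single-base changes and short insertions and deletions put in. Larger structural variants were not considered. Reads of the reference strain were mapped to mm10 itself. The part of this difference in mapping in the results was not tested. The deposited parental values are estimated counts, since some libraries hold steps of 0.5 (34.4% to 38.8% of values in replicate 2 of each strain, 29% to 45.3% in input). The deposited F1 counts are not normalized either, are given per 200-base region and also hold steps of 0.5 (5.3% to 6.9% of allelic values), and the allelic ones count perfectly mapped reads over a variant.

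F1 regions were summed into each 1000-base window that holds their midpoint. Counts were rounded and tested with edgeR 4.0.16 (TMM, robust quasi-likelihood test, R 4.3.3) over all windows with a mean normalized count over 16 (5 for input). Windows were called when the log2 fold change exceeded 1 in size and p, adjusted by Benjamini-Hochberg, was under 0.05. DESeq2 1.42.0, other normalizations and filters, a replicate block and leaving out libraries were alternatives. F1 alleles of the same number come from the same animal (r of their deviations 0.196 to 0.213), and parental libraries of the same number also deviated together (0.241 to 0.428), so both were also fitted as paired; input numbers did not pair (-0.00964 to 0.0411). The edgeR step was tested on simulated F1 counts. Overlapping windows share reads, counts are not independent molecules, and p-values cover the spread between these mice.

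The windows, gene lists and tests were chosen with earlier results of these data known. Named windows were, with 1 window per gene in each rule and leaving out symbols of predicted (Gm) and RIKEN genes (except among the 6 best covered, the gene lists and those nearest the threshold), the 8 with the largest ratio, the 8 with the highest C57BL/6J CPM, the 8 largest allelic leads with no overlap of columns and at least 50 counts, the 6 best covered with an allelic log2 fold change under 0.25, the 6 genes with most members, up to 4 per gene list, and those nearest the threshold at 20 CPM or more; no member was called toward BALB/cJ or in the main input fits. Further windows named for their input were chosen after their values were seen. F1 input was not analysed here.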

Additional observations from a re-analysis of the deposited data

Results flagged for a closer look

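In 5 windows at 4 genes, every parental C57BL/6J library exceeded every BALB/cJ library. In the same windows, the BALB/cJ allele had the higher normalized count in each of the 3 F1 animals. Over all 5234 windows tested, the BALB/cJ allele was the higher one in 3 of 3 animals in 1201, and in the 197 members in these 5. The difference between the parental and the allelic contrast was not tested. The allelic log2 fold change was -0.19 at *Asph* (chr4:9649172-9650172), -0.01 at *Haus2* (chr2:120651522-120652522), -0.07 at *Prdx2* (chr8:84968263-84969263), and -0.08 at both overlapping *Kcna2* windows (chr3:107099252-107100252 and chr3:107098892-107099892), which hold the same F1 reads. At the promoter of *Prdx2*, a peroxiredoxin gene, the parents had 15 CPM in C57BL/6J, 6.74 in A/J and 6.81 in BALB/cJ, while the alleles 12.1, 24.8 and 12.8 against 12.2, 25.8 and 14.3 normalized counts. These allelic differences are small beside their SE, and their adjusted p-values in edgeR were 0.918 at *Asph* and 0.998 at the others. In raw counts the BALB/cJ allele was not ahead throughout. *Haus2* had 48, 72.5 and 59 on the C57BL/6J allele and 48, 70 and 57 on the BALB/cJ allele. The C57BL/6J allele also had more raw counts at *Kcna2* in animal 1 (20.5 against 20) and at *Asph* in animal 3 (40.5 against 39.5).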

How the results depend on the processing

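The number of member windows was 1098, 504 at a 3-fold threshold, and 1039 to 1258 when a library was left out. Members called toward the C57BL/6J allele in the F1 numbered 88. The count was 159 of 696 without a filter (22.8%, against 1.91% of all windows). With the animal as a replicate block it was 38 (19.3% against 1.82%). It was 16 of 36 at a mean count over 50 (44.4% against 3.78%), and 57 of 150 with the nearest region only (38% against 4.13%). It was 42 to 93 with an animal left out (42 without animal 3, 43 without animal 2), and 26 with each allele over 16, an alternative chosen after seeing the data. DESeq2 called 102 (51.8%, against 5.02% of all windows), of which 86 were among the 88. Called toward BALB/cJ were 0 in all these settings. Members called higher in A/J than in BALB/cJ numbered 23 (36 with the replicate block, 11 to 27 with a library left out), and those higher in BALB/cJ 34 (51 and 24 to 38). The counts over all windows in the main fit and with the block are given above. In A/J against C57BL/6J input, 0 were called, 1 without a filter and 0 to 1 with a library left out. The block changed no input count. Over the 42 named and tested windows and their alternatives, no called direction reversed, while 352 results stayed on their side of the threshold, 25 lost a call (16 of them with an animal left out) and 4 gained one. Allelic depth left 505 members with reads but too few for a test.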
